A study of Canis lupus familiaris with 18 samples.

Results

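The chromatin of *GTF2I* was described from the *ChIP-seq* peaks of 6 dogs in a window of chromosome 6 from 5720000 to 5850000 (CanFam3.1), which holds the gene, its intron 1 and its flanks. Every deposited *E2F1* or *H3K27ac* peak that overlapped this window by at least 1 bp was taken. These were 182 of the 1381743 peaks in the 12 lists, 65 for *E2F1* and 117 for *H3K27ac*. A q value below 0.0005 was required of an *E2F1* peak and below 0.05 of an *H3K27ac* peak, and 24 *E2F1* peaks and 116 *H3K27ac* peaks passed. Results refer to these peaks unless all deposited peaks are named.

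The study compared brainstem tissue (pons) of old male pet dogs that differ in a transposable element (TE) inside *GTF2I*. In 3 dogs, labelled ins and called ancestral, 1 allele carried the TE insertion. The other 3 dogs, labelled noins and called derived, carried it on neither allele. All were males of 12 to 16 years, and the tissue was flash-frozen. By the study's supplement, 1 of the dogs was a Labrador Retriever and the others were of mixed breed. Breed was not used here. Peaks were called separately in each dog, with 1 list per antibody and dog, and values of a group are given in the order of dogs 1, 2 and 3. The tissue label could not be checked against marker genes, because no annotation of this build was used here. The lists hold no reads, so the depth behind a peak is unknown from them, and a locus without a peak has no value. The study's supplement reports statistics per library, which were not used here.

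*GTF2I* encodes TFII-I, a transcription factor that binds both basal promoter elements and upstream regulatory sites, and it is among the genes deleted in Williams Beuren syndrome, in which social behaviour is heightened. Acetylation of histone H3 at lysine 27 (*H3K27ac*) marks active promoters and enhancers. *E2F1* is a transcription factor best known for binding promoters of genes of the cell cycle, and it is also present in neurons. Short interspersed elements are TEs derived from small RNAs such as tRNAs, and dog genes hold many of them in introns.

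The study's exon table gives 34 exons, numbered here as there by rising coordinate from 5727664 to 5811965. The study's text counts the intron that holds the TE differently from this table, so an exon number given here can differ from the same number there. It places intron 1 above exon 34, and the bases upstream of the gene higher still. By these names the gene runs from high to low coordinate, and exon 1 of the table lies far from its start. An intron is named by the exons on either side of it. The table's exons make up 3189 bases of this span and its introns 81113 bases. Below exon 1 the window holds 7664 bases, and above exon 34 it holds 38035 bases, which include the stretch that the study calls intron 1.

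*H3K27ac* covered more of the *GTF2I* window than of the rest of its chromosome in each of the 6 dogs. In the ancestral group, peaks covered 41.4%, 33.96% and 38.9% of the window, against 17.0%, 11.7% and 13.0% of the rest of chromosome 6. In the derived group, they covered 47.0%, 45.5% and 44.5% of the window, against 14.5%, 14.5% and 14.3% of the rest. The mean difference was 27.7 percentage points ± 4.07 (SD, n = 6 dogs; two-sided exact sign-flip test over 64 assignments, p = 0.03125, the smallest these allow). Adjusted over the 3 comparisons of position, this exact p was 0.0938. Set among all stretches of the same length in the genome, the window had more covered bases than 91.2% of them in ancestral dog 1, the lowest share, and more than 95.0% in derived dog 1, the highest.

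Over the whole window, the covered length was greater in each derived dog than in any ancestral dog. It was 53.9, 44.1 and 50.5 kb in the ancestral group and 61.0, 59.1 and 57.8 kb in the derived group. The means were 49.5 ± 4.94 kb and 59.3 ± 1.63 kb (SD, n = 3 each), and the groups did not overlap. Derived dogs had 9.82 kb more on average (two-sided exact permutation test over 20 assignments, p = 0.1, the smallest that 3 dogs against 3 allow, adjusted p = 0.5 over 5 genotype comparisons). Of the 15903 stretches of this length with *H3K27ac* in at least 1 dog, 2.60% had a greater covered length in each derived dog than in any ancestral dog, and 2.33% had the opposite order. The order of the dogs was derived 1, 2 and 3, then ancestral 1, 3 and 2, and the gap between derived dog 3 and ancestral dog 1 was smaller than the SD of the ancestral dogs. From the lowest to the highest exon alone, the order was not kept and the groups overlapped. There, 32.46, 27.74 and 31.31 kb were covered in the ancestral group and 42.10, 31.71 and 37.06 kb in the derived group, a difference of 6.46 kb (exact permutation p = 0.2). Above exon 34, the values were 16.70, 11.78 and 14.90 kb and 14.68, 22.42 and 16.42 kb.

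The rest of chromosome 6 did not show that order. There, *H3K27ac* covered 13.9% ± 2.80 (SD, n = 3) of the bases in ancestral dogs and 14.4% ± 0.0960 (SD, n = 3) in derived dogs, 0.539 percentage points more, which lay within the spread of the ancestral dogs (two-sided exact permutation test, p = 0.7). Ancestral dog 1, with the most of the rest of the chromosome covered, had less of the window covered than every derived dog. The part of sequencing depth in the window's order was not tested, as the lists do not give it. With the rest of the chromosome subtracted in each dog, a comparison added after the values were seen, the window's excess was 24.2 ± 1.79 percentage points in ancestral dogs and 31.2 ± 1.17 in derived dogs (SD, n = 3 each; two-sided exact permutation test, p = 0.1).

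*H3K27ac* lay on both ends of the exon table and on its lower middle, and left most of the upper exons bare. A peak touched 15, 19 and 16 of the 34 exons in the ancestral group and 19, 12 and 20 in the derived group. The means were 16.7 ± 2.08 and 17 ± 4.36 exons (SD, n = 3 each), so the genotypes differed by less than the spread between dogs (two-sided exact permutation test, p = 1, adjusted p = 1). The difference, 0.333 exons, was 3.33 at a q value below 1e-05, 0.667 with an equal number of peaks per dog and -0.333 with 50% of an exon required. Leaving out ancestral dogs 1, 2 and 3 singly gave -0.5, 1.5 and 0, and leaving out the derived dogs gave -0.667, 2.83 and -1.17. Derived dogs 2 and 3 held the lowest and the highest number of all 6.

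In all 6 dogs, 9 exons carried *H3K27ac*, and each of them was covered over its whole length in every dog. They were exons 1, 2 and 3 at the low end, exons 8 and 9, exons 16, 17 and 18 just below the TE, and exon 34. No dog had a peak on 7 exons, which were 21, 22, 25, 26, 27, 30 and 33. The other 18 exons were marked in some dogs, and of these 7 in a single dog, 3 in 2 dogs, 2 in 3 dogs, 2 in 4 dogs and 4 in 5 dogs. No exon was marked in each dog of 1 genotype and bare in every dog of the other (two-sided Fisher's exact test, lowest p = 0.4, at exons 10, 13 and 14). There were 2 such exons without derived dog 2, and 1 either without ancestral dog 2 or with 50% of an exon required. Of the 6 exons that share a length of 185 bp, which are exons 6, 10, 15, 18, 21 and 31, exon 18 alone was marked in every dog.

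The TE position divides the table into 18 exons below it and 16 above it, and the mark was unequal on the sides. Below the TE, the ancestral group had *H3K27ac* on 12, 14 and 12 exons, and the derived group on 16, 11 and 17. Above it, they had the mark on 3, 5 and 4 and on 3, 1 and 3 exons. In derived dog 2 the single marked exon above the TE was exon 34. All 7 exons without a peak in any dog lay above the TE.

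Along the low end, the dogs parted at exons 4 to 7. Exon 5 was marked in ancestral dogs 2 and 3 and in derived dogs 1 and 3, and bare in ancestral dog 1 and derived dog 2. Exons 6 and 7 were marked in 5 dogs and bare in derived dog 2, whose peaks stopped at 5732439 and resumed at 5733941. Exon 10 was marked in ancestral dog 2 and in all 3 derived dogs (two-sided Fisher's exact test, p = 0.4).

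Exons 11 to 14 were bare in all 3 ancestral dogs. Exons 11 and 12 were marked in derived dog 3 alone. Exons 13 and 14 were marked in derived dogs 1 and 3 (two-sided Fisher's exact test, p = 0.4), and derived dog 2 had no peak on them. Single peaks ran over exons 13 and 14 from 5737345 to 5759646 in derived dog 1 and from 5731215 to 5753462 in derived dog 3, with widths of 22302 and 22248 bp. Exon 15 was marked in 5 dogs and bare in ancestral dog 3. In derived dog 2, 28.6% of that exon was covered.

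Above the TE, the marked exons changed from dog to dog. Exon 19 was marked in ancestral dogs 2 and 3 and derived dog 3, and 12 of the 60 bases of exon 20 were covered in ancestral dog 3 alone. Exon 23 was marked in ancestral dog 3 alone. Exon 24 was marked in ancestral dogs 1 and 2 and in derived dog 3. Exon 28 was marked in derived dog 1 alone, and exon 29 in ancestral dog 1 and derived dog 1. A peak of ancestral dog 2 from 5805546 to 5807533 covered exon 32 and 77.3% of exon 31, which no other dog marked.

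Exon bases were covered more than intron bases in 5 of the 6 dogs. The covered share was 45.1%, 61.1% and 42.6% of exon bases in the ancestral group and 54.2%, 33.3% and 60.6% in the derived group. Of the intron bases it was 38.2%, 31.8% and 36.9% in the ancestral group and 49.8%, 37.8% and 43.3% in the derived group. Derived dog 2 alone had the opposite order. The mean difference of 9.82 percentage points ± 11.8 (SD, n = 6) was smaller than its spread (two-sided exact sign-flip test, p = 0.0938, adjusted p = 0.141). It was 5.93 percentage points without ancestral dog 2 and 5.52 at the stricter threshold, a q value below 1e-05.

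Of the 33 introns, 16 carried *H3K27ac* in all 6 dogs and 2 carried none in any dog. The bare introns lie between exons 25 and 26 and between exons 30 and 31. The 4 introns marked in a single dog were those between exons 11 and 12 (derived dog 3), 22 and 23 (ancestral dog 3), and 31 and 32 and then 32 and 33 (ancestral dog 2). Another 2 introns were marked in 2 dogs, that between exons 13 and 14 in derived dogs 1 and 3, and that between exons 28 and 29 in ancestral dog 1 and derived dog 1. Those marked in 3 dogs were between exons 10 and 11, 19 and 20, 26 and 27, and 29 and 30. Those marked in 4 dogs were between exons 4 and 5, 14 and 15, and 21 and 22. In 5 dogs, they were between exons 6 and 7, where derived dog 2 had none, and between exons 20 and 21, where ancestral dog 2 had none. The longest run of the window without *H3K27ac* in any dog, 8259 bp from 5777614 to 5785872, spans exons 25 and 26.

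The intron between exons 27 and 28, from 5790012 to 5799331, was covered over more bases in each derived dog than in any ancestral dog. *H3K27ac* covered 595, 570 and 467 bp of it in the ancestral group and 4844, 3651 and 1723 bp in the derived group. It was the only intron of the 33 in which the covered lengths of the genotypes did not overlap, and it is described after its values were seen. Among the 127323 stretches of that length with *H3K27ac* in the genome, 3.27% had a greater covered length in each derived dog. All 6 dogs shared a peak in this intron, with 467 bp common to all from 5797288 to 5797754.

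The same intron held the only region of the window found in all 3 dogs of 1 genotype and absent from the other. It ran from 5790408 to 5791933, with *H3K27ac* peaks of 1518, 1487 and 1171 bp in the derived group. These ranked low in their lists by q, above 18.7%, 12.9% and 7.2% of the peaks. Of the 20 *H3K27ac* regions made by merging the peaks of the dogs, this 1 was called in the 3 derived dogs alone, against 0.351% of the 169065 regions of the genome. None was called in the 3 ancestral dogs alone, against 0.258%. With at least 2 dogs of 1 genotype required, the window held the same region and no ancestral one, against 2.75% and 2.34% of all regions. At a q value below 1e-05, or with an equal number of peaks per dog, the window held no region of 1 genotype. Over both antibodies it held 3 without ancestral dog 1 and 2 without ancestral dog 2, with no share over the genome computed for these settings.

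At exon 4, a domain of *H3K27ac* ended. It began between 5723033 and 5723404, covered exons 1 to 3, and was 6522 to 6958 bp wide in the 6 dogs. Its upper end lay at 5729967, 5729990 and 5729971 in the ancestral group, beyond the end of exon 4 or on its last base. In the derived group, it lay at 5729925, 5729932 and 5729913, at the first bases of that exon or just below it. Exon 4 was thus covered whole in 3 of 3 ancestral dogs, and over 1, 8 and 0 of its 43 bases in the derived group. The 6 ends fell within 77 bp. Of the 4996 upper ends that lie within 100 bp of each other in the 6 dogs, 3.04% had each ancestral end above each derived end. This edge was picked out after its values were seen, and peak lists carry no error of an edge.

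The intron that holds the TE lies between exons 18 and 19, and *H3K27ac* covered 98.8%, 56.2% and 75.8% of it in the ancestral group and 92.6%, 89.4% and 74.9% in the derived group. The genotypes overlapped. At the TE position, from 5753797 to 5753983, 1 of 3 ancestral and 2 of 3 derived dogs had an unbroken peak. Derived dogs lack these bases of the reference, so a peak or gap there gives a position and does not measure the TE itself. The other 3 dogs shared a gap of 1741 bp in ancestral dog 2, 1739 bp in ancestral dog 3 and 1803 bp in derived dog 3. The lower edges of these gaps lay at 5753431, 5753463 and 5753462. Ancestral dogs 2 and 3 carry the TE on 1 allele, and derived dog 3 lacks it. Peak lists do not separate alleles, and a part of the TE in this gap was not tested.

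The *H3K27ac* peak with the highest fold enrichment of the window lay in the intron between exons 23 and 24 in 4 dogs. It began between 5772585 and 5772671 in all 6 dogs. Its fold over local background was 5.67, 6.91 and 7.99 in the ancestral group and 6.50 in derived dog 1, above 91.1% to 92.8% of the peaks of each list. In derived dogs 2 and 3 the highest fold, 6.52 and 5.44, belonged to the broad peaks that begin at 5745560 and 5731215 and hold exon 16. In the other dogs the peak over exon 16 had folds of 5.11, 6.86 and 7.57 in the ancestral group and 6 in derived dog 1.

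Bases covered in all 6 dogs made up 22.2% of the window, in 18 segments, and bases covered in none made up 35.6%, in 20 segments. Those covered in a single dog made up 13.8%. The longest segment shared by all ran over 7208 bp from 5746224 to 5753431, over exons 16 to 18. The Jaccard index, the length 2 dogs share over the length either covers, reached a median of 0.650 among the 15 pairs (range 0.518 to 0.724) in the window and of 0.596 (range 0.508 to 0.635) on the whole of chromosome 6. Within the window its median was 0.636 over the 6 pairs of the same genotype and 0.661 over the 9 pairs of different genotypes. These pairs share dogs, and no test was made.

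*E2F1* peaks were few and fell unevenly on the dogs. The study cautions that its *E2F1* data may miss some binding sites. It adds that differing efficiency of the precipitation can leave a peak uncalled in some dogs of a group. A missing *E2F1* call is therefore not a measure of missing binding. At the threshold the window held 1, 7 and 7 peaks in the ancestral group and 0, 8 and 1 in the derived group. Among all deposited peaks it held 6, 13 and 13 and 4, 20 and 9. The means at the threshold were 5 ± 3.46 and 3 ± 4.36 peaks (SD, n = 3 each), and the genotypes overlapped (two-sided exact permutation test, p = 0.9, adjusted p = 1). The difference of -2 peaks became 0.333 with all deposited peaks and -0.333 from the lowest to the highest exon. Leaving out ancestral dogs 1, 2 and 3 singly gave -4, -1 and -1, and leaving out the derived dogs gave -0.5, -4.5 and -1. Each genotype had a dog with at least 7 peaks and a dog with at most 1.

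The number of peaks followed the length of the whole list. The *E2F1* lists held 19359, 31537 and 36421 peaks in derived dog 1, ancestral dog 1 and derived dog 3, which had 0, 1 and 1 peak in the window. They held 42072, 51352 and 64490 peaks in ancestral dogs 2 and 3 and derived dog 2, which had 7, 7 and 8. With an equal number of peaks taken from each list, the difference was -2.67 peaks (two-sided exact permutation test, p = 0.3). The part of list length in the window's counts was not tested further.

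*E2F1* peaks covered 300, 4546 and 2667 bp of the window in the ancestral group and 0, 1987 and 336 bp in the derived group. The means were 2504 ± 2128 bp and 774 ± 1064 bp (SD, n = 3 each), a difference of -1730 bp that lay within the spread of the ancestral dogs (two-sided exact permutation test, p = 0.3, adjusted p = 0.75). It was -2832 bp without ancestral dog 1, -709 bp without ancestral dog 2, -850 bp at a q value below 1e-10 and -236 bp from the lowest to the highest exon. Per 100 kb, the window held 3.08 ± 2.84 peaks and the rest of chromosome 6 held 2.43 ± 1.01 (SD, n = 6 dogs; two-sided exact sign-flip test, p = 0.469, adjusted p = 0.469). The difference of 0.642 was 1.71 with all deposited peaks, 0.243 at a q value below 1e-10 and 1.32 against the autosomes and X. Leaving out ancestral dogs 1, 2 and 3 singly gave 0.994, 0.195 and 0.292, and leaving out the derived dogs gave 0.995, 0.352 and 1.03. The window had the higher density in 3 of the 6 dogs, those with the longest lists. Between the lowest and the highest exon alone, the difference from the rest of chromosome 6 was -1.05 peaks per 100 kb (exact sign-flip p = 0.0938).

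The summits of *E2F1* peaks fell on no exon in any dog, at the threshold or among all deposited peaks. Of the 24 peaks, 7 had their summit in an intron, 4 below exon 1 and 12 above exon 34, and 1 had it below the window. A single region touched an exon. It was the peak of ancestral dog 3 from 5728359 to 5728567, with its summit at 5728435 in the intron between exons 1 and 2, which reached into exon 2. Exons make up 3.78% of the bases from the lowest to the highest exon.

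Inside the exon table, each *E2F1* region was called in 1 dog, as were 83.0% of the *E2F1* regions of the genome. The intron with the TE held 4 of the 7 summits. They were at 5756627 and 5759078 in ancestral dog 2, 5754381 in derived dog 2 and 5758101 in derived dog 3. None of these peaks overlapped one of another dog. The other 3 lay between exons 1 and 2 (ancestral dog 3), 3 and 4 (derived dog 2) and 15 and 16 (ancestral dog 2). The last, from 5746331 to 5746608, had a fold of 8.46 and ranked above 92.1% of its list by q. No dog had an *E2F1* peak at the threshold from exon 19 to exon 34.

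Above exon 34, the window held 1, 2 and 5 *E2F1* peaks in the ancestral group and 0, 4 and 0 in the derived group. The means were 2.67 ± 2.08 and 1.33 ± 2.31 (SD, n = 3 each; two-sided exact permutation test, p = 0.5, adjusted p = 0.833). Here the 2 groups had overlapping values. The difference of -1.33 was -0.333 both with all deposited peaks and at a q value below 1e-10. It was -2.17 and -0.167 without ancestral dogs 1 and 3, -2.67 without derived dog 2, and -0.667 without derived dog 1 or 3. This stretch held 8 of the 18 merged *E2F1* regions of the window, 7 lay between the lowest and the highest exon, and 3 below exon 1. Merged also with peaks that lie beyond the window, 6 of the 18 regions were called in at least 2 dogs, against 17.0% of the 185773 regions of the genome. Of the 6, 4 lay above exon 34 and 2 below exon 1.

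The first of these 4 regions was made of peaks of ancestral dogs 1 and 3, from 5822026 to 5822325 and from 5822156 to 5822499. It lies in the stretch the study calls intron 1. Their folds were 6.49 and 6.73, and they ranked above 83.2% and 76.2% of their lists by q. The peak of ancestral dog 1 was its only *E2F1* peak of the window at the threshold. Their summits, at 5822060 and 5822294, lay apart. *H3K27ac* around them had close edges in all 6 dogs, starting between 5821227 and 5821329 and ending between 5823327 and 5823462.

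The other 3 regions were clustered between 5838932 and 5841929. The lowest joined peaks of ancestral dogs 2 and 3 with summits at 5839623 and 5839687. The middle one, from 5840536 to 5840899, joined peaks of ancestral dog 3 and derived dog 2, with summits at 5840670 and 5840679 and folds of 7.97 and 6.14. The highest joined peaks of ancestral dogs 2 and 3, with summits at 5841703 and 5841737 and folds of 6.30 and 5.95. Among all deposited peaks, derived dog 3 also had a peak in each of the 3 regions, and derived dog 2 in the highest, so that both genotypes were present in each of them. Ancestral dog 1 and derived dog 1 had none there.

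The higher of the 2 regions below exon 1 that were called in at least 2 dogs ran from 5720636 to 5722544. It joined a peak of ancestral dog 2 with 2 peaks of derived dog 2. The summits nearest to each other were at 5721254 and 5721295. These were the *E2F1* peaks of highest fold of the window in both dogs, at 9.16 and 7.29, above 96.1% and 91.5% of their lists. Weaker peaks of ancestral dog 3 and derived dog 1 overlapped it among all deposited peaks. The lower, from 5718909 to 5720012, crossed the border of the window and was called in 3 dogs. Of its peaks, that of ancestral dog 2 reached into the window, with a fold of 9.12 and its summit at 5719252, and those of ancestral dog 3 and derived dog 2 ended below it.

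By genotype, 0 of the 18 *E2F1* regions was called in 3 ancestral dogs and no derived dog, against 0.118% of the 185773 regions of the genome. The opposite order was also found in 0 regions, against 0.0484%. With at least 2 dogs required, 3 regions were ancestral, against 2.08% of all regions, and none was derived, against 1.57%. The 3 are the intron 1 region and the lowest and highest regions of the cluster (two-sided Fisher's exact test, p = 0.4 for each). Inside the intron 1 region, the study compared normalized reads and reported a significantly stronger *E2F1* signal in ancestral dogs. Fisher's test here counts dogs with a call and does not repeat that comparison of reads. With all deposited peaks the intron 1 region kept ancestral dogs alone, and both regions of the cluster also held a derived dog. Those peaks gave 2 ancestral regions and 1 derived region under the same rule, with no share over the genome computed for them. The second ancestral region ran from 5728359 to 5728714 (ancestral dogs 2 and 3) and the derived one from 5727937 to 5728252 (derived dogs 2 and 3).

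Of the 3 *E2F1* regions of the cluster, the middle and the highest lay in a gap of *H3K27ac*, and the lowest overlapped *H3K27ac* of 5 dogs at its lower end, with both summits in the gap. No dog had *H3K27ac* from 5839192 to 5842052, a run of 2861 bp. Below it the mark ended at 5838257 in ancestral dog 1 and between 5839162 and 5839191 in the other 5 dogs, and above it the mark resumed between 5842053 and 5842079 in all 6, within 26 bp. The folds of the peak above the gap were 4.85, 6.35 and 6.93 in the ancestral group and 5.24, 5.36 and 5.39 in the derived group. *E2F1* peaks at the threshold overlapped the gap in ancestral dogs 2 and 3 and derived dog 2, and among all deposited peaks also in derived dog 3.

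*E2F1* peaks lay in some gaps of the mark and not in others. The window overlapped 17 gaps of 1 to 5 kb between *H3K27ac* regions, and 13 held no *E2F1* peak at the threshold in any dog. The share of gaps without a peak was not computed for the genome, so this number is a description only. Among all deposited peaks, the gaps that start at 5786289, 5791934 and 5823463 also held an *E2F1* peak. In 3 of the 17, at least 2 dogs had an *E2F1* peak, against 8.67% of the 95043 such gaps of the genome. Those were the gap from 5839192 to 5842052, above exon 34, and a pair below exon 1, from 5719037 to 5721406 and from 5721826 to 5723032. The gaps were looked at after their values were seen, and no test was made.

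Over all dogs, 14 of the 24 *E2F1* peaks of the window overlapped *H3K27ac* of the same dog. This share of 58.3% was 25% at the stricter thresholds and 35.7% with an equal number of peaks per dog. It held for 1 of 1, 3 of 7 and 4 of 7 peaks in the ancestral group. In derived dogs 2 and 3 it was so for 5 of 8 and 1 of 1. Over the whole lists, 44.5%, 44.8% and 45.8% of *E2F1* peaks overlapped *H3K27ac* in the ancestral group and 32.1%, 54.5% and 35.2% in the derived group. Of the 7 peaks between the lowest and the highest exon, all but 1 lay in *H3K27ac*. The exception was the peak of ancestral dog 2 with its summit at 5756627. The *E2F1* peak of highest fold lay outside *H3K27ac* in ancestral dogs 2 and 3 and derived dog 2, and inside it in ancestral dog 1 and derived dog 3.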

How the data were processed

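*E2F1* and *H3K27ac* peak lists of 6 dogs were used, and the 6 input libraries were not analysed here. The authors trimmed reads with Trim Galore (0.0.6), aligned them to CanFam3.1 with Bowtie (1.1.2 in the notes, while the study's methods name Bowtie 2) keeping multi-mapped reads, removed duplicates by molecular identifiers with a preference for unique alignments, and called peaks per dog with MACS2 (2.2.0), narrow for *E2F1* and broad for *H3K27ac*. Versions come from the submitters' processing notes. The deposited lists give a score (not used), the fold, a ratio over local background computed by the authors, and −log10 p and q values. Whether inputs entered the calls is not given in the sources used here, and the lists carry no normalization between dogs. Fold and q were used within a list only. Thresholds follow the study's methods. Exon and TE coordinates came from the study's supplement. Coordinates are 1-based.

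Covered lengths, counts and regions (peaks that overlap or touch, merged over dogs) were computed in Python 3.11.15 (scipy 1.17.1, numpy 2.4.6 and pandas 2.3.3), with an overlap of at least 1 bp, and tested on simulated data. Chromosomes were taken to end at the last peak. Genotypes were compared by exact permutation, positions by sign flips over dogs, with Benjamini-Hochberg adjustment. Named features were the TE and its intron, exons and introns whose *H3K27ac* differed between dogs or was absent, *E2F1* regions of at least 2 dogs, and the peaks of highest fold per dog. The members and lists were chosen with earlier results of these data known. Sequences and start sites were not used here.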

Additional observations from a re-analysis of the deposited data

How the results depend on the processing

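The settings changed were the q threshold (every deposited peak, or q below 1e-10 and 1e-05), equal numbers of peaks, the dogs (each left out), other overlap rules, the exon span alone, trimmed introns (200 bp) and a background of autosomes and X. Settings that do not enter a result were not run for it. The difference in *H3K27ac* covered length was positive at each threshold, with equal numbers, with each dog left out and in the exon span, from 6.46 to 12.3 kb. With each dog left out, it ran from 7.14 to 12.0 kb, and that in exons with *H3K27ac* from -1.17 to 2.83. The latter was 3.33 at the stricter threshold and -0.333 with 50% of an exon or the whole exon required, where 1 exon (exon 4) separated the genotypes. With a dog left out, 0 to 2 exons did so (2 without derived dog 2, 1 without ancestral dog 2), and the window's excess of *H3K27ac* over chromosome 6 was 26.7 to 28.8 percentage points, with a smallest p of 0.0625 because fewer dogs were tested. The *E2F1* peak number difference was 0.333 with all peaks, and *E2F1* density against chromosome 6 was -1.05 per 100 kb in the exon span. The share of *E2F1* peaks in *H3K27ac* was 58.3%, 25% at the stricter thresholds, 35.7% with equal numbers and 85.7% in the exon span. The region of 1 genotype was lost at stricter thresholds and with equal numbers (0 regions), 4 were found with 2 dogs required, and 1 to 3 with a dog left out (3 without ancestral dog 1, 2 without ancestral dog 2). For the regions with a dog left out, no share over the genome was computed. The causes were not tested.

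Dogs of the genotypes share only a number. Deviations of same-numbered dogs over stretches of the genome correlated at -0.0757, -0.294 and -0.0980. With that number as a block (exact sign-flip test over 3 pairs), the covered length difference of 9.82 kb had p = 0.25, and no call changed. No count was adjusted for depth, which is unknown from the lists.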
